A study of Mus musculus with 12 samples.

Results

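Satellite cells grown in culture for 4 days were set against freshly sorted cells of the same muscles that do not belong to the myogenic lineage. The comparison rests on 8 of the 12 microarrays of the study, the 4 titled as activated satellite cells and the 4 titled as non-myogenic cells. The remaining 4 arrays, of quiescent satellite cells, were used to state which of the differences were already present in satellite cells that had not been cultured. All cells came from hind limb muscles of C57BL/6J mice aged 8 to 12 weeks, with no transgene or injury named in the labels, and 1 array was hybridised per sample. The activated cells were the fraction that binds SM/C-2.6, a monoclonal antibody against a surface antigen of mouse satellite cells, kept 4 days in DMEM with 20% fetal calf serum and 2.5 ng/ml basic fibroblast growth factor, and more than 99% of them were MyoD-positive by the labels. The non-myogenic cells were negative both for SM/C-2.6 and for CD45, the pan-leukocyte antigen, were taken without culture, and by the labels fewer than 1% of them were myogenic. The quiescent cells were the SM/C-2.6-binding fraction taken without culture, more than 97% of it Pax7-positive by the labels. The activated and non-myogenic groups therefore differed in lineage, in culture and in the time since sorting at once, and these cannot be told apart between them. The non-myogenic fraction was a mixture of cell types. In such bulk samples fewer cells of a type and less RNA per cell cannot be told apart.

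Satellite cells are the stem cells of skeletal muscle. When they enter the cell cycle they become myoblasts, which express the myogenic transcription factors of the MyoD family and later fuse into multinucleated fibres. These factors bind the E-box, the short DNA sequence CANNTG with a preference for the form CAGCTG, in promoters and enhancers of muscle genes such as those of the acetylcholine receptor. Genes of the G2 and M phases of the cell cycle are known for a different promoter layout, a CCAAT box bound by NF-Y and the cell cycle homology region TTTGAA bound by the DREAM and MuvB complexes. The muscle cells outside the lineage include fibroblasts and fibroadipogenic progenitors, which make the collagen matrix, tenocytes of tendon, endothelial cells and pericytes of the vessels, and Schwann cells of the nerves.

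Promoter sequences of 3 genes of the neuromuscular synapse that were higher in activated cells are shown first, because each holds the E-box CAGCTG, which is given in capitals. Chrna1 encodes the alpha subunit of the muscle acetylcholine receptor, Chrng its fetal gamma subunit, and Musk the receptor kinase that clusters it. The 250 bases before each annotated transcript start are printed 5′ to 3′ on the strand of the gene, from RefSeq on build GRCm38.p6, at chr2:73580339-73580588 on the minus strand, chr1:87205561-87205810 on the plus strand and chr4:58285712-58285961 on the plus strand.
Chrna1: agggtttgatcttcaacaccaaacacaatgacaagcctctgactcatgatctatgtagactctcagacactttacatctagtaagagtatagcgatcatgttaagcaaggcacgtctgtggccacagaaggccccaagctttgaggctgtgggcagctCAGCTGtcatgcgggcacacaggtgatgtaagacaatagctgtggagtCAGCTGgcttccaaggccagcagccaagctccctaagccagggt
Chrng: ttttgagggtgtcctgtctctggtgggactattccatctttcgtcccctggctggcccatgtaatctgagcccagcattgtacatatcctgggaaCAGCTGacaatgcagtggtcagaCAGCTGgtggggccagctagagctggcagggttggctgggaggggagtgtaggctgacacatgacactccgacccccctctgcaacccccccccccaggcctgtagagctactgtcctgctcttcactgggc
Musk: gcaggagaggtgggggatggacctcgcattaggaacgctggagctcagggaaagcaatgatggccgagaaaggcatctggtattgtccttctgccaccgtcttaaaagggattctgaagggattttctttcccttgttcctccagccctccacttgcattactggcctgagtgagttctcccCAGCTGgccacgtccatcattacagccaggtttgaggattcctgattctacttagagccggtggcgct
The sites began 92 and 44 bases before the start of Chrna1, 155 and 132 bases before that of Chrng and 68 bases before that of Musk. The promoter table listed 7 of the 12 tested genes of the acetylcholine receptor and its postsynaptic partners, and in the windows from 250 bases before to 50 after the start, searched on both strands, 3 of these 7 (42.9%) held CAGCTG. The same letters were found for 9 of 22 listed genes of the embryonic and fetal sarcomere (40.9%), 1 of 9 skeletal myogenic regulators (11.1%), 17.4% of the 6491 tested genes with a listed promoter and 16.3% of all 32851 promoters in the table. A match describes the letters in the window and says nothing of binding.

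A second set of promoters carries the cell cycle elements, with CCAAT or its reverse complement ATTGG, and TTTGAA or its reverse complement TTCAAA, in capitals. Cdk1 encodes the kinase that drives mitosis, Ube2c the ubiquitin-conjugating enzyme of the anaphase-promoting complex and Cdc20 an activator of that complex. Their windows lie at chr10:69352913-69353162 on the minus strand, chr2:164769679-164769928 on the plus strand and chr4:118437344-118437593 on the minus strand of GRCm38.p6.
Cdk1: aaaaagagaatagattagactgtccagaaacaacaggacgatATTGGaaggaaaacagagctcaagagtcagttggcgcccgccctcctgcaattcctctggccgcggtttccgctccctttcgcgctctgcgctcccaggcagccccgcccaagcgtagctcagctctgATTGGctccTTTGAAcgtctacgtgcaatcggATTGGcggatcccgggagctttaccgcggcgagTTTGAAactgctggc
Ube2c: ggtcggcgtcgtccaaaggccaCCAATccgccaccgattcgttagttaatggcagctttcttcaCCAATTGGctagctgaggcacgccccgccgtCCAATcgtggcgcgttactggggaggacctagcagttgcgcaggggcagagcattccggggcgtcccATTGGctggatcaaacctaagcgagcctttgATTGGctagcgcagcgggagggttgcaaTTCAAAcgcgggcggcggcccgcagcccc
Cdc20: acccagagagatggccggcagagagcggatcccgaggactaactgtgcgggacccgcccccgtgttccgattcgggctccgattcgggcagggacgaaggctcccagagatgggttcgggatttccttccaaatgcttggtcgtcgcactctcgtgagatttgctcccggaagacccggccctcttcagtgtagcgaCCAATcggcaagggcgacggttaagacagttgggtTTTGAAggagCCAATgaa
TTTGAA was found in the promoters of 26 of 33 listed mitosis genes (78.8%) and CCAAT in 28 of 33 (84.8%). Of 28 listed genes of DNA replication 14.3% held TTTGAA and 57.1% held CCAAT. Over the 6491 tested genes with a promoter the shares were 14.1% and 43.0%. The nearest TTTGAA to the start lay 15 bases before it in Cdk1, 29 in Ube2c, where it is read on the opposite strand, and 18 in Cdc20.

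Signals were scaled to a common trimmed mean of 235 on every array, and differences are given as log2(signal + 14.7), activated minus non-myogenic, with a standard error from limma, a linear model across all genes with a term for the labelling kit. Since 14.7 is added to every signal, differences of dim genes come out smaller than their true change. A gene was called when its Benjamini-Hochberg adjusted p over all 13085 tested probe sets was under 0.05. Of 12393 genes on the array, 7960 passed the signal filter and each was read through its brightest probe set. Labelling kits differed within the groups, the small-sample kit on activated replicates 1 and 2 and on non-myogenic replicate 1, and the two-cycle kit on activated replicates 3 and 4 and on non-myogenic replicates 2 to 4. For Gapdh, the signal at the 3′ end over that at the 5′ end, which reflects RNA integrity and amplification, was 1.75 ± 0.411 (SD, n = 4) in activated and 3.87 ± 0.916 in non-myogenic cells, and its part in the results was not tested. Over genes, which do not count as independent replicates, arrays of 1 group correlated at 0.934 to 0.988 within these groups, and activated with non-myogenic arrays at 0.493 to 0.572. Whether arrays within a group stem from different mice or cultures is not stated in the labels. The p-values thus reflect the spread among these samples alone. That spread may be technical, and precision is limited by having 4 arrays a group.

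Most markers of each lineage went with the labels. Myod1, the master regulator of the myogenic lineage, had signals of 3841, 3305, 5541 and 5829 on the activated arrays and 38.1, 40.9, 33.2 and 32.6 on the non-myogenic arrays. The lowest activated array lay above every non-myogenic array by a wide margin. The summed signal of 7 myoblast markers ran from 13334 to 17548 on activated and from 399 to 718 on non-myogenic arrays. The fibroblast markers that could be read, 6 of 7, summed to 25228 to 45950 on non-myogenic and 1219 to 1382 on activated arrays. Those of endothelium (7 markers) summed to 7359 to 8503 against 73.9 to 125, those of tenocytes (4 of 5) to 15141 to 29646 against 33.2 to 113, and those of pericytes and smooth muscle (6) to 9604 to 18108 against 2144 to 4736. Acta2 made up most of this last activated sum, and its arrays overlapped, at 3236 to 10436 against 2008 to 4553. The tenocyte marker Scx, under the signal filter, went the other way, with means of 43.6 against 56.8. Schwann cell markers (3) summed to 728 to 1064 against 52.8 to 70.9, and to 330 to 1414 on quiescent arrays. Among these Sox10 did not differ by the test (47.4 against 35.4, limma adjusted p 0.181).

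Marker sets of other cell types bear on the purity of the groups. Markers of the mature muscle fibre, 5 in all, summed to 5119 to 15107 on the non-myogenic arrays, 96.4 to 2448 on the activated and 1215 to 3990 on the quiescent arrays. Leukocyte markers (7) summed to 122 to 233 on non-myogenic and 93.7 to 176 on activated arrays. Most of the activated sum was Laptm5, with means of 44.2 on non-myogenic and 103 on activated arrays. The other markers of this set all had lower means on activated arrays, at low signals. Among them Ptprc, which encodes CD45, had mean signals of 27.5 and 4.59, under the signal filter. The erythroid markers that could be read, 2 of 4, summed to 276 to 894 on the non-myogenic and 4.5 to 17.9 on the activated arrays. This came from Alas2, which encodes the heme synthesis enzyme of red cell precursors. Its signals of 249, 735, 874 and 418 on the non-myogenic arrays faced 1.49, 1.13, 6.09 and 1.42 on the activated arrays (log2 difference -4.87 ± 0.33, SE).

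**Figure D1:**
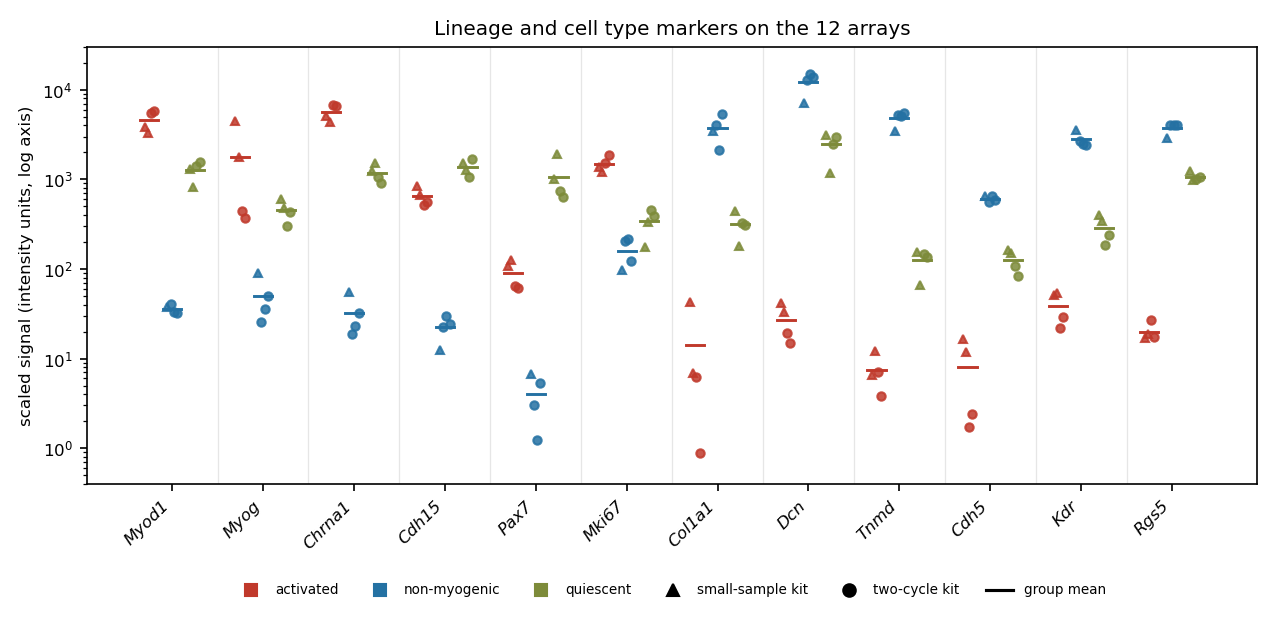
Scaled signal of 12 marker genes (vertical log axis, intensity units) on the 4 activated, 4 non-myogenic and 4 quiescent arrays, where each point is an array, its shape gives the labelling kit and bars are group means. Myod1, Chrna1, Cdh15 and Mki67 were high on all activated arrays, and Dcn, Tnmd, Kdr and Rgs5 on all non-myogenic arrays, while the quiescent arrays lay between the others for most stromal and vascular markers.

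Activated and non-myogenic cells differed in most of the genes measured. Of 7960 genes, 5724 (71.9%) were called, 2693 (33.8%) higher and 3031 (38.1%) lower in activated cells (limma, adjusted p under 0.05). At 2-fold or more, 1469 genes (18.5%) were higher and 1971 (24.8%) lower, and at 5-fold or more 289 (3.63%) and 850 (10.7%). The 4 and 4 arrays did not overlap for 4901 genes (61.6%), 29% of all tested being higher and 32.6% lower in activated cells. Over probe sets in place of genes, 9157 of 13085 (70%) were called, 34.7% higher and 35.3% lower. The split of called genes was 47% higher and 53% lower with the scaling used, and 63.4% higher and 36.6% lower when arrays were centred on their medians instead, which moved the median difference of all genes from -0.07 to 0.36. Differences are best read against that shift.

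**Figure D2:**
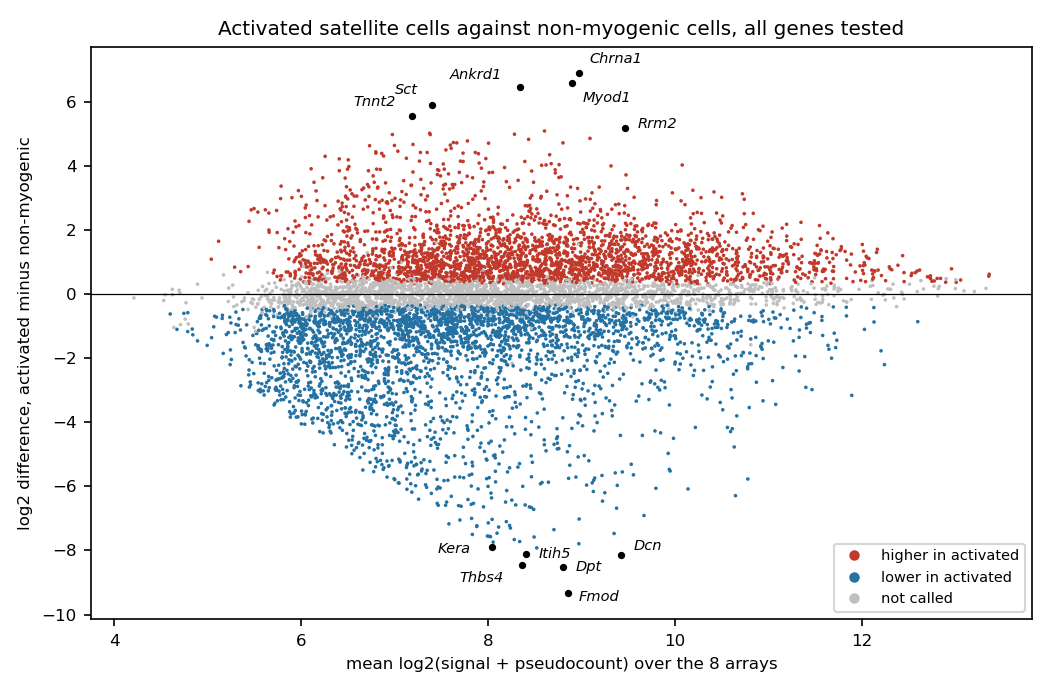
The log2 difference of each of the 7960 tested genes, activated minus non-myogenic (vertical axis), against its mean log2 signal over the 8 arrays (horizontal axis), with called genes in colour, grey points not called and 12 named genes in black. Plotted values run from -9.33 for Fmod to 6.90 for Chrna1, and the pseudocount of 14.7 limits them where one group is near 0.

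Many of these differences were already present in satellite cells taken fresh. Of the 1469 genes higher at 2-fold or more in activated cells, 751 (51.1%) were also called higher in quiescent than in non-myogenic cells, 271 of them at 2-fold or more, while 622 (42.3%) were not called and 96 (6.5%) were called lower. Of the 1971 genes lower at 2-fold or more, 1198 (60.8%) were also called lower in quiescent cells, 849 of them at 2-fold or more, while 568 (28.8%) were not called and 205 (10.4%) were called higher. Quiescent against non-myogenic cells gave calls for 52.3% of all tested genes, 26% higher and 26.4% lower, and 8.37% and 13.7% at 2-fold or more. Both comparisons use the same non-myogenic arrays, so these counts are a description and the shared direction has no test. Among the genes changed at 2-fold or more, quiescent and non-myogenic cells differed by under 0.5 log2 with no call for 587 of the higher genes (40%) and 498 of the lower genes (25.3%).

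The transcription factors of the myogenic lineage were split between high and low. Of 13 tested skeletal myogenic regulators 7 were higher, 4 lower and 2 not called in activated cells, with a median log2 difference of 1.94 against -0.07 for all genes. Myod1 was higher by 6.58, and Myf5, its relative that acts earlier, had signals of 497, 651, 449 and 395 on activated against 14, 7.61, 5.21 and 14 on non-myogenic arrays (log2 difference 4.44 ± 0.38). Both were also high in fresh satellite cells, with differences of quiescent from non-myogenic of 4.73 for Myod1 and 6.60 for Myf5. Pitx3 (2.99) and Lbx1 (2.05), homeobox genes of the lineage, were higher too. On the activated arrays Myog, the factor of differentiating myocytes, had signals of 4532 and 1775 with the small-sample kit and 444 and 369 with the two-cycle kit, all above the 25.7 to 90.4 of the non-myogenic arrays. Hes6, which encodes a factor that promotes myogenic differentiation, was higher by 4.86, with signals of 2136 to 3402 against 75.8 to 107, and quiescent cells, at 91.4 to 228, exceeded the non-myogenic cells by 0.64 (adjusted p 0.014).

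The regulators that were lower included Meox2 (-5.36 ± 0.23), a homeobox gene of somites, limb muscle and vessels, and the MEF2 gene Mef2c (-2.94 ± 0.70), which also acts in endothelium and was at 372 and 563 with the small-sample kit but 29.4 and 21.2 with the two-cycle kit on activated arrays, against 681 to 1298 on non-myogenic arrays. Msc, which encodes the repressor musculin, was lower as well (-2.64 ± 0.33). Its signals were 58.1, 2.86, 9.53 and 11.8 on activated, 147, 172, 206 and 150 on non-myogenic and 1661 to 2005 on quiescent arrays, so the cultured and the fresh satellite cells lay on opposite sides of the non-myogenic cells.

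Markers of satellite cells gave as many genes in either direction. Of 25 tested, 10 were higher and 10 lower in activated than in non-myogenic cells, near the shares of all tested genes (33.8% and 38.1%). The median was -0.23, and 0.21 with median centring and 0.07 with quantile normalization. In quiescent cells 18 of the 25 were higher than in non-myogenic cells, with a median of 2.38. Pax7, the factor that defines the satellite cell, had signals of 109, 125, 65 and 61.8 on activated and 1.24 to 6.66 on non-myogenic arrays, all activated arrays being higher. Those of Cdh15, which encodes M-cadherin, were 518 to 843 against 12.6 to 29.5 (log2 difference 4.15 ± 0.21). Cd34, a surface antigen of quiescent satellite cells that fibroadipogenic and endothelial cells share, was at 10.1 to 28 on activated, 2897 to 3822 on non-myogenic and 1362 to 1641 on quiescent arrays (-6.64 ± 0.18). Chodl, which encodes the membrane lectin chondrolectin, was at 1.85 to 12.2, 397 to 637 and 3540 to 5820 on the same arrays (-4.57 ± 0.22).

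Genes of the muscle endplate stood out among the increases. Of 12 tested genes of the acetylcholine receptor and its postsynaptic partners 8 were higher and 3 lower, with a median of 1.95. Chrna1, whose promoter is shown above with 2 E-boxes, was among the largest increases. The order of these is not settled, since the 14.7 added to each signal limits the difference of genes such as Tnnt2, Sct and Myh3, whose non-myogenic signals lay mostly below it. Its signals were 5048, 4342, 6778 and 6537 on activated and 55.4, 18.9, 23.3 and 32.3 on non-myogenic arrays, a log2 difference of 6.90 ± 0.24. Chrng had signals of 1450, 1012, 476 and 485 against 13.9, 1.2, 5.33 and 4.19 (4.98 ± 0.18), with no overlap and with higher values with the small-sample kit. Chrnd, the delta subunit, was higher by 2.98 ± 0.15 with signals of 127 to 153 against 2.6 to 8.52.

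The clustering genes Rapsn, which encodes the scaffold rapsyn (4.72 ± 0.20), and Musk (3.06 ± 0.19) were higher as well. Fresh satellite cells already carried Chrna1 (4.65 above non-myogenic cells), Rapsn (4.44) and Musk (2.25), while Chrng (0.07, adjusted p 0.771) and Chrnd (0.19, adjusted p 0.331) did not differ by the test there. The 3 members that were lower in activated cells were Agrn (-2.01 ± 0.17), the secreted organiser agrin, and the genes of the cytoskeletal linkers utrophin, Utrn (-1.62 ± 0.27), and beta-2-syntrophin, Sntb2 (-2.30 ± 0.25). In quiescent cells 4 of the 12 tested genes were higher and 5 lower than in non-myogenic cells, with a median of -0.12. Agrn (-0.66) and Sntb2 (-1.19) were among those 5.

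Genes of myoblast adhesion and fusion were called at about the shares of all tested genes (33.8% higher and 38.1% lower). Of 20 tested, 8 were higher and 7 lower, with a median of -0.17 that became 0.26 with median centring and 0.04 with quantile normalization. Beside Cdh15, the N-cadherin gene Cdh2 was higher (3.51 ± 0.25), with signals of 1337, 1161, 862 and 798 against 105, 50.1, 102 and 39.1. Its quiescent signals of 47.6 to 101 lay within the range of the non-myogenic ones. Mymk, the membrane fusion protein myomaker, had signals of 1549 and 982 with the small-sample kit and 170 and 198 with the two-cycle kit on activated arrays, against 2.85 to 24 on non-myogenic arrays. The cell surface receptor genes Boc (-2.72) and Neo1 (-1.68), the protease gene Adam19 (-1.26), the guanine nucleotide exchange factor gene Dock1 (-1.36) and the membrane trafficking gene Ehd2 (-2.62) were lower, as were the tetraspanin genes Cd9 (-1.60) and Cd81 (-1.12).

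Sarcomere genes depended on the kit, that is, on which arrays were read. Of 25 tested genes of the embryonic and fetal sarcomere 8 were higher, 7 lower and 10 not called. Over all tested genes 33.8% were higher and 38.1% lower. The median of the list was -0.24. Arrays of the small-sample kit alone gave a median of 1.34, with 14 higher and 0 lower, and those of the two-cycle kit alone -0.95, with 7 higher and 13 lower. Without activated replicate 3 or 4 the lower members numbered 3 and 2, and 10 were higher in both cases. The median was 0.29 with median centring, 0.09 with quantile normalization, and 0.18 with a pseudocount of 1/4 of the trimmed mean. Members higher with both kits included Tnnt2, the troponin T of embryonic and cardiac muscle, with signals of 2217, 1438, 626 and 632 on activated and 0.992 to 11.2 on non-myogenic arrays (5.56 ± 0.23). Ankrd1, a titin-binding protein of the stretch response, was even on the activated arrays, at 2770, 2935, 3378 and 3078 against 16.3 to 27.9 (6.46 ± 0.19), and was already high in quiescent cells, at 408 to 724. Tnnt1, the slow troponin T, was higher by 3.34 ± 0.26. Desmin, Des, was higher by 2.45 ± 0.34 at its brightest probe set, whereas another probe set of the gene gave -0.20 (adjusted p 0.285). Lower members included Myl1 (-3.34 ± 1.10) and Tnnc2 (-3.24 ± 0.94). These differed by 0.13 and 0.04 with the small-sample kit and by -5.88 and -5.51 with the two-cycle kit. Tnni2 (-2.47 ± 0.49) was lower with both kits (-1.33 and -3.31). In quiescent cells 3 of the 25 genes were higher and 7 lower than in non-myogenic cells, with a median of -1.35.

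The interaction of kit and group, which tests whether the difference varied with the kit, was called for 50 genes (0.628%), and for 46 of these activated minus non-myogenic was the more positive with the small-sample kit. At an unadjusted p under 0.05 there were 868 (10.9%). Members of the embryonic sarcomere list made up 11 of the 50 and markers of mature fibres 7. Myh3, the embryonic myosin heavy chain, had signals of 2798 and 2289 with the small-sample kit and 135 and 119 with the two-cycle kit on activated arrays, against 1.26 to 10.7 on non-myogenic arrays. It was thus above every non-myogenic array with both kits, with log2 differences of 7.32 and 2.83. Myl4, an embryonic light chain, was at 1831 and 2118 with the small-sample kit and at 41.4 and 64.6 with the two-cycle kit, against 47.4 to 91.1 on non-myogenic arrays. The skeletal actin gene Acta1 differed by 0.69 with the small-sample and -4.52 with the two-cycle kit, and Mybph, a myosin-binding protein, by 3.37 and -2.71. In the groups compared, the small-sample kit was used only on activated replicates 1 and 2 and on non-myogenic replicate 1. The kit and a difference between these samples and the others therefore cannot be told apart. With the small-sample kit alone, 2 activated arrays against 1, the genes Cd81, Csf1, Dusp2, Laptm5, Masp1, Mef2c, Msc, Pfkm, Pttg1 and Slc2a4, described in other paragraphs, kept their direction but were not called. The call of Ccng1 was lost with the two-cycle kit alone, and that of Acta1 without activated replicate 3 or 4 or without non-myogenic replicate 3.

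**Figure D3:**
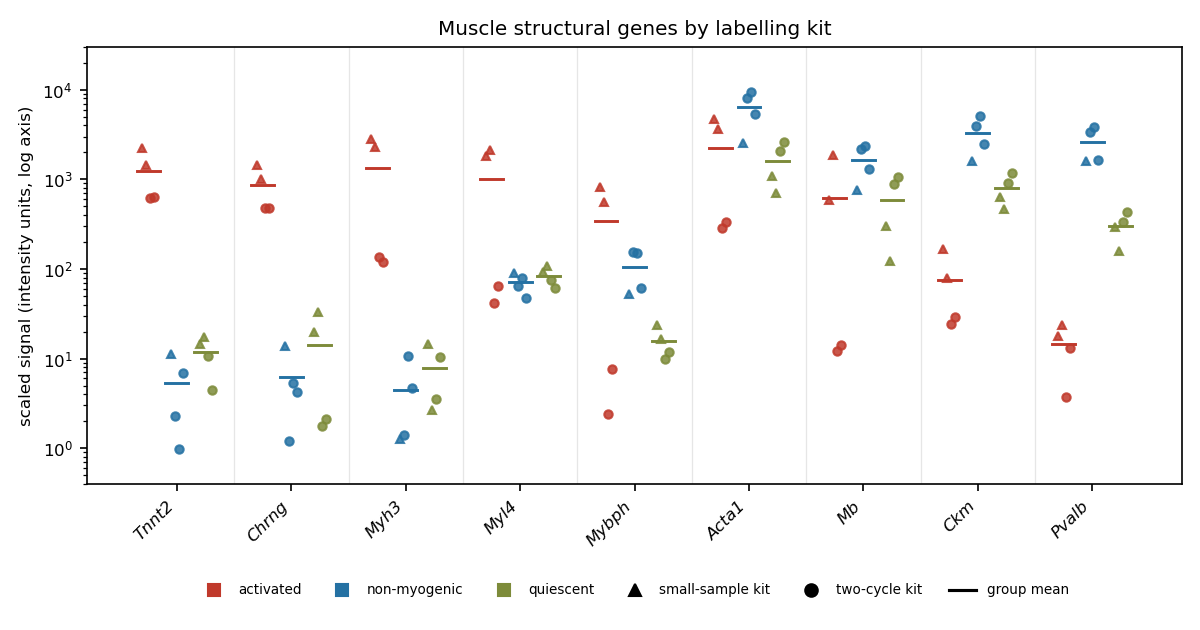
Scaled signal (vertical log axis, intensity units) of 9 muscle structural genes on the 12 arrays, each point an array, triangles for the small-sample and circles for the two-cycle kit, bars for group means. The 2 activated triangles lie above the 2 activated circles for all 9 genes, while Ckm and Pvalb were highest on the non-myogenic arrays.

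Markers of mature muscle fibres were lower in the cultured cells. Of 21 tested, 17 were lower, 3 not called and 1 higher, with a median of -1.87, or -0.55 for the small-sample kit alone (10 lower and 4 higher) and -3.32 for the two-cycle kit alone. Ckm, the muscle creatine kinase, was at 167, 79.4, 24.4 and 29.1 on activated and 1595, 3909, 5138 and 2484 on non-myogenic arrays (-5.34 ± 0.49). Pvalb, the calcium buffer parvalbumin of fast fibres, was lower by 6.36 ± 0.35 and Myh4, the fast myosin heavy chain, by 5.92 ± 0.41 on the log2 scale. The labels put fewer than 1% myogenic cells among the non-myogenic cells, and the fibre transcripts there are at the summed levels given for that marker set. Their part in the sarcomere differences was not tested. The member that was higher was Eno3, the muscle enolase (2.06 ± 0.26), with signals of 2969 to 6220 against 548 to 2049 and, in quiescent cells, 113 to 423.

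The genes of cell division were higher in activated cells almost without exception. All 33 tested DNA replication genes were higher (median log2 difference 2.74), as were 38 of 39 mitosis genes (median 3.88). The 8 arrays did not overlap for any of the 39 mitosis genes. Rrm2, the small subunit of ribonucleotide reductase, had signals of 3835, 3633, 4779 and 4843 on activated and 118, 112, 108 and 80.3 on non-myogenic arrays (5.17 higher). Cdk1 was at 2070, 1785, 2752 and 2403 against 41.5, 71.9, 69.4 and 36.9 (5.09 ± 0.21). Every activated array lay above every non-myogenic array for both genes. The kinesin gene Kif2c (5.02), Ube2c (4.99) and Cdc20 (4.72 ± 0.16), Plk1, which encodes a mitotic kinase (4.40 ± 0.16), and Hmmr, which encodes a spindle and hyaluronan-binding protein (4.09 ± 0.15), were also among the larger increases.

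Replication licensing and nucleotide supply followed, with the thymidine kinase gene Tk1 (4.71 ± 0.23), the licensing factor gene Cdt1 (4.00 ± 0.22), the ribonucleotide reductase gene Rrm1 (2.92) and the primase gene Prim1 (2.69). The proliferation marker gene Mki67 had signals of 1201 to 1852 on activated, 97.1 to 215 on non-myogenic and 178 to 456 on quiescent arrays. The mitosis gene that was lower was Pttg1, the securin that inhibits separase (-0.82 ± 0.15), with 2221 ± 117 (SD, n = 4) against 4204 ± 728. In quiescent cells 15 of the 33 replication genes and 32 of the 39 mitosis genes were higher than in non-myogenic cells, by smaller amounts, with medians of 0.47 and 0.85.

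Inhibitors of the cell cycle went mostly the other way. Of 25 tested cell cycle inhibitors and antiproliferative genes 16 were lower, 4 higher and 5 not called, with a median of -0.99. Cdkn1c, which encodes the inhibitor p57, was at 115, 42.5, 25.5 and 24.4 on activated and 1244 to 1548 on non-myogenic arrays (-4.74 ± 0.24), and Btg2, an antiproliferative immediate early gene, at 33.6 to 131 against 1094 to 2798 (-4.55 ± 0.41). The 4 that were higher were Cdkn2b (3.35 ± 0.27) and Cdkn2c (1.13 ± 0.19), inhibitors of the G1 kinases, Rbl1 (1.37 ± 0.21), the retinoblastoma relative p107, and Ccng1 (1.02 ± 0.23), a target of p53. In quiescent cells the list had 11 higher and 6 lower and a median of 0.54 against non-myogenic cells, with Btg2 higher by 1.68.

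The machinery of growth was higher too. Of 37 tested genes of ribosome biogenesis 36 were higher and none lower (median 1.89), led by Wdr12 (3.07), which acts in pre-ribosome processing, and by Nop56 (2.81), Nhp2 (2.79) and Fbl (2.52), which belong to small nucleolar ribonucleoproteins. All 34 proteasome genes were higher (median 1.27), from 0.61 to 2.36, the last for the activator gene Psme3, and 32 of them had arrays that did not overlap. In quiescent cells ribosome biogenesis was higher for 30 of 37 genes (median 0.92), but the proteasome for 4 of 34, with 4 lower (median 0.06). Of 18 tested aminoacyl-tRNA synthetase genes 17 were higher (median 1.26), with the valine and arginine enzymes Vars (2.19) and Rars (1.90) in the lead. Genes of ribosomal proteins were higher for 21 of 26 (median 0.60), but for only 6 of them did the arrays not overlap. The count of higher genes fell to 9 in a fit without the kit term and to 6 within the small-sample kit. In quiescent cells 25 of 26 were higher, with a median of 0.98.

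Among metabolic genes, those of amino acid, one-carbon and nucleotide synthesis were higher for 23 of 24 (median 1.84). Psat1 (3.78 ± 0.20) and Phgdh (3.24 ± 0.19) are successive enzymes of serine synthesis, and Shmt2 (2.65) and Mthfd1 (2.36) carry its one-carbon unit into the folate cycle. Phgdh had signals of 3164, 2692, 4514 and 3830 against 299, 376, 425 and 424 on non-myogenic and 209 to 413 on quiescent arrays, so only the cultured cells were high. The asparagine synthetase gene Asns was at 1824, 1400, 2039 and 2105 on activated, 225 to 293 on non-myogenic and 57.6 to 91.7 on quiescent arrays. Amino acid transporters are to be set against the shares of all tested genes, 33.8% higher and 38.1% lower. Of 10 tested, 5 were higher, with the glutamine and neutral amino acid carriers Slc38a1 (2.98) and Slc7a5 (2.42) in front. The 3 that were lower included the glutamine carrier Slc1a5 (-1.15). The count of lower ones was 1 with median centring, with quantile normalization and within the small-sample kit.

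Genes of oxidative phosphorylation were higher for 32 of 36 and lower for none (median 0.91), with cytochrome c, Cycs (2.08), and the ATP synthase genes Atp5g1 (1.95) and Atp5o (1.65) at the top. In quiescent cells 10 of the 36 were higher and 3 lower, with a median of 0.10. Glycolysis had 8 of 18 higher and 3 lower, against 33.8% and 38.1% of all tested genes. Its median was 0.10, which was -0.01 without non-myogenic replicate 2. Pkm, which encodes pyruvate kinase (2.24), Pgam1, phosphoglycerate mutase (1.95), and Pfkl, the liver form of phosphofructokinase (1.58), were higher, while Pfkm, the muscle form of that enzyme (-1.17), Pfkfb3, its activator (-1.49), and Slc2a4, the insulin-responsive glucose transporter (-1.46), were lower. Of 22 genes of cholesterol and fatty acid synthesis 11 were higher and 2 lower (median 0.51). Within the small-sample kit 4 were higher, and without activated replicate 1 the lower ones numbered 4. Quiescent cells showed 13 of the 22 higher (median 0.82). Cyp51, a demethylase of cholesterol synthesis, was higher by 1.28 and the fatty acid synthase gene Fasn by 1.02, while the regulator gene Srebf1 (-1.34) was lower.

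**Figure D4:**
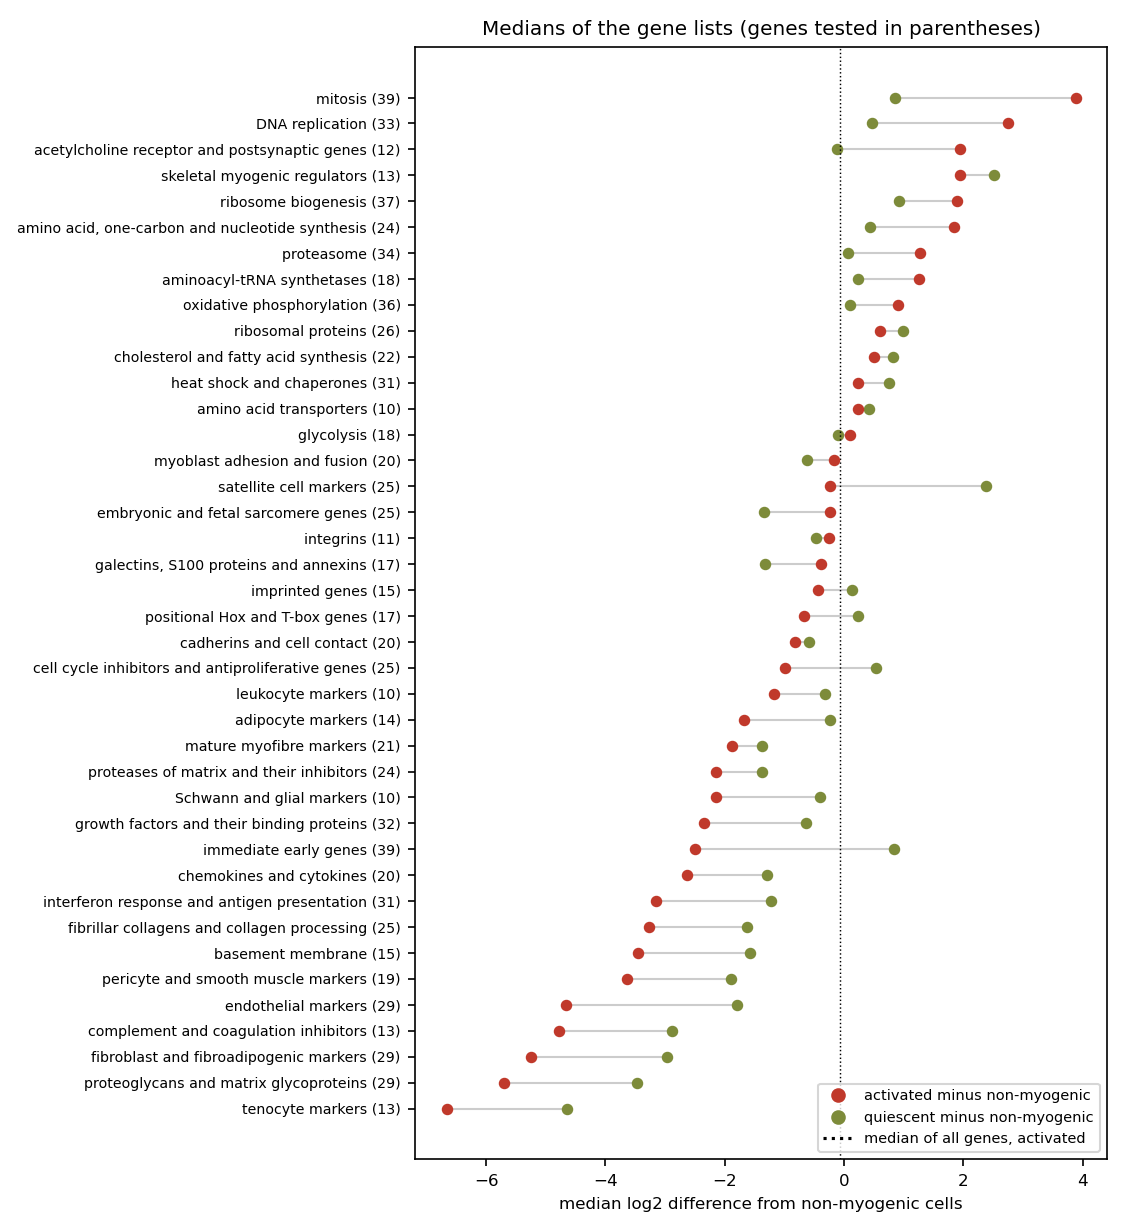
Median log2 difference of the tested members of each gene list with at least 5 of them (horizontal axis, list names with the number tested on the vertical axis), for activated minus non-myogenic in red and quiescent minus non-myogenic in green, with the median of all genes dotted. Mitosis and replication lie furthest to the right and tenocyte, proteoglycan and fibroblast lists furthest to the left, and the green points lie nearer 0 than the red for most lists. Both colours share the non-myogenic arrays.

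Connective tissue genes gave the largest decreases. All 25 tested genes of fibrillar collagens and collagen processing were lower in activated cells (median -3.27), as were 14 of 15 basement membrane genes (-3.46) and 28 of 29 proteoglycans and matrix glycoproteins (-5.70). The small leucine-rich proteoglycan gene Fmod, fibromodulin, had signals of 7.46, 0.75, 1.59 and 1.09 on activated and 7104, 14231, 14751 and 15961 on non-myogenic arrays, a log2 difference of -9.33. Its quiescent signals of 153 to 484 lay between. Dpt, the matrix protein dermatopontin, was at 0.984 to 21 against 5460 to 10316 (-8.51), but at 3752 to 4361 in quiescent cells. Decorin, Dcn (-8.13 ± 0.33), lumican, Lum (-7.58 ± 0.40), and keratocan, Kera (-7.88 ± 0.18), belong to the same family as fibromodulin and were lower by similar amounts.

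Among collagens and their enzymes, Col6a1 (-6.91 ± 0.32), Col14a1 (-6.49 ± 0.25) and Col1a1 (-7.22 ± 0.39) were lower, and so were the proline hydroxylase gene P4ha2 (-3.27) and the procollagen protease gene Bmp1 (-2.73). Of the basement membrane genes, the laminin chains Lama4 (-6.59), Lamb2 (-3.89) and Lamc1 (-3.98) and the collagen chains Col4a5 (-4.86) and Col4a2 (-3.15) were lower. The tenascin gene Tnxb (-7.30 ± 0.17) and the elastic fibre genes Mfap4 (-7.17) and Mfap5 (-6.43) were lower as well. In quiescent cells 24 of the 25 collagen genes, 14 of the 15 basement membrane genes and 28 of the 29 proteoglycan genes were lower than in non-myogenic cells, with medians of -1.63, -1.57 and -3.47.

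Every tested marker of fibroblasts and fibroadipogenic cells (29, median -5.24), tenocytes (13, -6.66) and endothelium (29, -4.66) was lower in activated than in non-myogenic cells. For fibroblasts these included Dpp4, a surface peptidase (-6.09 ± 0.13), Clec3b, tetranectin (-5.62), and the metalloprotease gene Adamts5 (-5.62), and Pdgfra, the receptor that marks fibroadipogenic progenitors, was at 1.97 to 5.96 against 2716 to 3183. For tenocytes, tenomodulin, Tnmd, was at 6.54, 12.2, 7.01 and 3.83 against 3506, 5213, 5144 and 5540 (-7.72 ± 0.23), and Thbs4 (-8.46 ± 0.20) and Comp (-6.66 ± 0.18) encode thrombospondins of tendon. The vascular growth factor receptor gene Kdr was at 51, 53.5, 21.7 and 28.8 against 3593, 2696, 2455 and 2418 (-5.92 ± 0.14), and the transcription factor genes Sox18 (-6.03) and Sox17 (-5.90) and the adhesion molecule gene Esam (-5.99) were lower as well. Values of the non-myogenic arrays were above all activated arrays for each of these genes.

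Pericyte and smooth muscle markers were lower for 18 of 19 (median -3.63), led by Steap4, a metalloreductase (-7.50 ± 0.26), and Rgs5, which dampens G protein signals (-6.72 ± 0.15), and desmin, which that list shares, was the exception. Of 10 tested Schwann and glial markers 7 were lower (median -2.15), with the myelin genes Pmp22 (-5.97) and Mbp (-4.72), and Ncam1, an adhesion molecule also of myoblasts, was higher (1.83 ± 0.15). Adipocyte markers were lower for 12 of 14 (-1.67), although the defining fat cell markers that could be read, 3 of 4, were near 0 in both groups, with sums of 7.98 to 40.2 on activated and 13.7 to 37.8 on non-myogenic arrays. Among the 12, Fabp4, the fatty acid binding protein of fat and capillaries, was at 4.92 to 18.1 against 4448 to 7083 (-7.92 ± 0.24), while Dgat2, a triglyceride synthesis enzyme, was higher (1.44). Only 10 of the 38 leukocyte markers on the array passed the signal filter, 6 lower and 1 higher. The lysozyme gene Lyz1 was at 0.375 to 1.42 on activated and 546 to 920 on non-myogenic arrays (-5.49 ± 0.54), and Lyz2 was lower by 2.51. The higher one was Laptm5, which encodes a lysosomal protein and whose arrays overlapped, at 0.92. Among 3 tested erythroid markers Alas2 was lower and Tfrc, the transferrin receptor that dividing cells also express, was higher (3.72 ± 0.21).

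In quiescent cells 28 of the 29 endothelial markers, 26 of the 29 fibroblast markers, 12 of the 13 tenocyte markers and 14 of the 19 pericyte markers were already lower than in non-myogenic cells, with medians of -1.80, -2.97, -4.64 and -1.90. The quiescent arrays carried more of these transcripts than the activated arrays, with summed endothelial markers of 1360 to 3041 and summed fibroblast markers of 7086 to 14972. Single genes weighed on these sums. The largest part of the endothelial sum was Vwf (mean 960), which did not differ from non-myogenic cells by the test (0.46, limma adjusted p 0.322). For fibroblasts it was Col3a1 (mean 7536 against 12887 on non-myogenic arrays, -0.60). The part of other cells in the SM/C-2.6-binding fraction in these values was not tested.

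Immediate early genes, which are induced within hours by stress and growth signals and by tissue dissociation, were lower in the cultured cells. Of 39 tested, 36 were lower, 2 higher and 1 not called, with a median of -2.5. Zfp36, an mRNA decay factor, had signals of 132, 54.7, 61.8 and 50.6 on activated and 5076, 2920, 3111 and 6747 on non-myogenic arrays (-5.66 ± 0.32). Socs3, which limits cytokine signalling, was lower by 5.55 ± 0.38, Cebpd, a transcription factor of the acute phase, by 4.82 ± 0.34 and Klf4, a zinc finger factor, by 4.41 ± 0.29 on the log2 scale. The 2 that were higher were Fosl1, the AP-1 subunit of growing cells (4.24 ± 0.37), and the phosphatase gene Dusp2 (2.02 ± 0.35). In quiescent cells 19 of the 39 were higher than in non-myogenic cells and 3 lower, with a median of 0.83. Both fresh groups were taken at once after sorting, and sorting and culture cannot be told apart from lineage in the difference of the activated cells.

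Of 31 tested heat shock and chaperone genes 13 were higher and 9 lower (median 0.23), near the shares of all tested genes (33.8% and 38.1%). Hspa1a, the stress-inducible HSP70, was at 109, 68.8, 22.2 and 38 on activated and 2912 to 4354 on non-myogenic arrays (-5.71 ± 0.41), with its twin Hspa1b at -4.16, and these near-identical copies may share probes. Hspa9, a mitochondrial chaperone (2.04), and Cct8, a subunit of the cytosolic chaperonin (1.94), were higher. The lower ones numbered 4 with median centring and 5 within the small-sample kit.

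All 31 tested genes of the interferon response and antigen presentation were lower, with no overlap of the arrays (median -3.16). They included the guanylate-binding protein gene Gbp2 (-5.19 ± 0.19), the GTPase gene Iigp1 (-4.69) and the interferon-induced Ifit3 (-4.24) and Ifit1 (-3.73). In quiescent cells 26 of these were lower, 1 higher and 4 not called (median -1.22). Complement genes and their inhibitors were lower for 12 of 13 (median -4.78). Serping1, the C1 inhibitor, was at 12.8 to 33.5 against 4998 to 9190 (-7.79), and the protease gene C1s1 was lower by 7.74 ± 0.25 on the log2 scale. Masp1, a protease of the lectin pathway, was the exception (1.92 ± 0.27). Chemokines and cytokines were lower for 18 of 20 (median -2.63), with the eosinophil chemokine Ccl11 (-6.40), the neutrophil chemokine Cxcl1 (-6.31) and the alarmin Il33 (-4.56). The exception was Csf1, the macrophage growth factor, with 1263 to 1691 on activated, 668 to 948 on non-myogenic and 90.8 to 202 on quiescent arrays (0.76 ± 0.16).

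Growth factors and their binding proteins were lower for 22 of 32 and higher for 6 (median -2.34). Tgfbi, a matrix protein induced by TGF-beta (-7.46 ± 0.21), and the insulin-like growth factor binding proteins Igfbp6 (-6.68) and Igfbp7 (-5.52) were lower, whereas Igfbp2 was higher, at 387, 624, 369 and 359 against 19.3, 13.3, 9.05 and 15.3 (3.90 ± 0.22). The peptide hormone genes Sct, secretin, and Gal, galanin, were also higher. Sct was at 456 and 913 with the small-sample kit and 2232 and 2546 with the two-cycle kit on activated arrays against 3.69 to 17.1 on non-myogenic arrays, a log2 difference of 5.91 that varied with the kit (interaction adjusted p 0.0307). Gal was at 633, 561, 1524 and 1670 against 6.59 to 40.9 (4.65 ± 0.48). Gal was also high in quiescent cells, at 203 to 823, and Sct was not, at 8.68 to 13.8.

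Adhesion families were mixed, and over all tested genes 33.8% were higher and 38.1% lower. Of 11 tested integrins 3 were higher and 3 lower, with a median of -0.26 that became 0.17 with median centring, and the lower ones numbered 6 within the two-cycle kit. Itga7, the laminin receptor of muscle, was at 888 to 1559 against 186 to 279 (2.30 ± 0.18) and Itgb5 was lower (-5.04). Cadherins and cell contact genes were lower for 11 of 20 and higher for 2, the 2 being Cdh15 and Cdh2, or 4 with median centring. Of 17 galectins, S100 proteins and annexins 8 were lower and 4 higher, with a median of -0.38, or 0.04 with median centring. Lgals3, galectin-3, was at 4329, 4316, 4310 and 4834 on activated, 219 to 273 on non-myogenic and 44.1 to 104 on quiescent arrays (4.03 ± 0.18), and S100a4 was higher by 2.12 ± 0.20.

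Proteases of the matrix and their inhibitors were lower for 19 of 24 (median -2.15), led by Timp3 (-7.25 ± 0.19), while the metalloproteinase inhibitor gene Timp1 (1.84 ± 0.19), the urokinase receptor gene Plaur (1.31) and the cathepsin inhibitor gene Cst6 (2.69) were higher. Of 17 genes in the list of positional Hox and T-box genes 11 were lower and 4 higher, against 38.1% and 33.8% of all tested genes. The median was -0.67, or -0.59 within the small-sample kit, and 7 were lower under median centring or quantile normalization. The 4 were Hoxa9 (1.25), Hoxa11 (1.20), Hoxa7 (1.05) and Pitx3 (2.99), the homeobox gene described above with the myogenic regulators. Of 15 imprinted genes 7 were lower and 4 higher (median -0.43, and 0.00 with median centring), against 38.1% and 33.8% of all tested genes. Meg3, a maternally expressed long non-coding RNA, was at 53.1 to 114 against 1631 to 2402 (-4.51 ± 0.20), and Peg3, a paternally expressed zinc finger gene, was higher (1.77 ± 0.14).

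The arrays of quiescent cells gave 3 kinds of pattern among the larger differences. These do not cover all genes, as Kif2c (5.02 in activated and 0.97 in quiescent cells) and Serping1 (-7.79 and -0.70) fell in none. In the first kind, fresh satellite cells already differed from the non-myogenic cells at 2-fold or more in the same direction. Asb5, which encodes an ankyrin repeat protein of muscle, was at 929 to 1527 on activated, 1165 to 2270 on quiescent and 23.2 to 28.5 on non-myogenic arrays, and Lrrn1, a leucine-rich repeat membrane protein, was higher by 4.98 in activated and 3.54 in quiescent cells. On the low side Mfap4 was at 1.27 to 1.46 on activated, 2.48 to 4.68 on quiescent and 2108 to 2549 on non-myogenic arrays. Dpp4 was at 0.61 to 3.6 and 1.02 to 4.84 against 1027 to 1268, and Cd248, the stromal antigen endosialin, at 1.55 to 10.7 and 3.64 to 41.2 against 2498 to 2903. The cartilage and tendon matrix gene Chad (-7.56 and -6.80 for activated and quiescent cells) and Pi16, a marker of fibroblasts (-7.66 and -6.49), were like them.

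In the second kind, fresh satellite cells and non-myogenic cells lay close together and the cultured cells stood apart. On the high side, beside Sct, Tnnt2, Ube2c, Chrng, Tk1 and Myh3, were Hmga2, a chromatin protein of growing and embryonic cells, at 819 to 1668 on activated, 10.4 to 41.7 on non-myogenic and 22.8 to 63 on quiescent arrays (4.73 ± 0.19), and the cell cycle transcription factor gene E2f8 (4.42 ± 0.33). On the low side Itih5, a hyaluronan-associated protein, was at 1.34, 0.703, 9.4 and 7.87 on activated, 4340 to 7038 on non-myogenic and 4050 to 7932 on quiescent arrays (-8.12). The lipid transporter gene Abca8a (-7.35 ± 0.28), the matrix protein gene Prelp (-7.10 ± 0.16), the retinal dehydrogenase gene Aldh1a1 (-6.18 ± 0.15), the selenium carrier gene Selenop (-6.16 ± 0.26) and the thioredoxin inhibitor gene Txnip (-6.00 ± 0.33) had the same pattern. Quiescent cells differed from non-myogenic cells by -0.16, -0.29, -0.07, -0.20 and -0.43 for these 5 genes.

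In the third kind, the activated and the quiescent cells lay on opposite sides of the non-myogenic cells, at 2-fold or more each, which held for 30 genes higher and 107 lower in activated cells. Timp1 was at 2552, 3158, 2565 and 2704 on activated, 596 to 845 on non-myogenic and 70.6 to 126 on quiescent arrays, and Myof, the membrane repair protein myoferlin, at 1169 to 1632, 345 to 479 and 52.8 to 96.3 (1.71 and -2.24). Bcat1, a branched-chain amino acid enzyme, differed by 2.31 and -2.03, and Lgals3, Asns and Eno3 belong to the same group. The opposite order held for Nr4a1, an immediate early nuclear receptor, at 53.6, 42.2, 15.6 and 32.5 on activated, 2711, 826, 925 and 2318 on non-myogenic and 3782 to 7972 on quiescent arrays (-5.02 and 1.89). It also held for Egr2, an early zinc finger factor (-3.36 and 2.64), Nfkbiz, an inducible nuclear regulator of NF-kappaB (-3.33 and 1.98), the bile acid carrier relative Slc10a6 (-3.89 and 1.89), Chodl and Msc. On the non-myogenic arrays Nr4a1, Egr2, Nfkbiz and Slc10a6 were all higher in replicates 1 and 4 than in replicates 2 and 3.

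**Figure D5:**
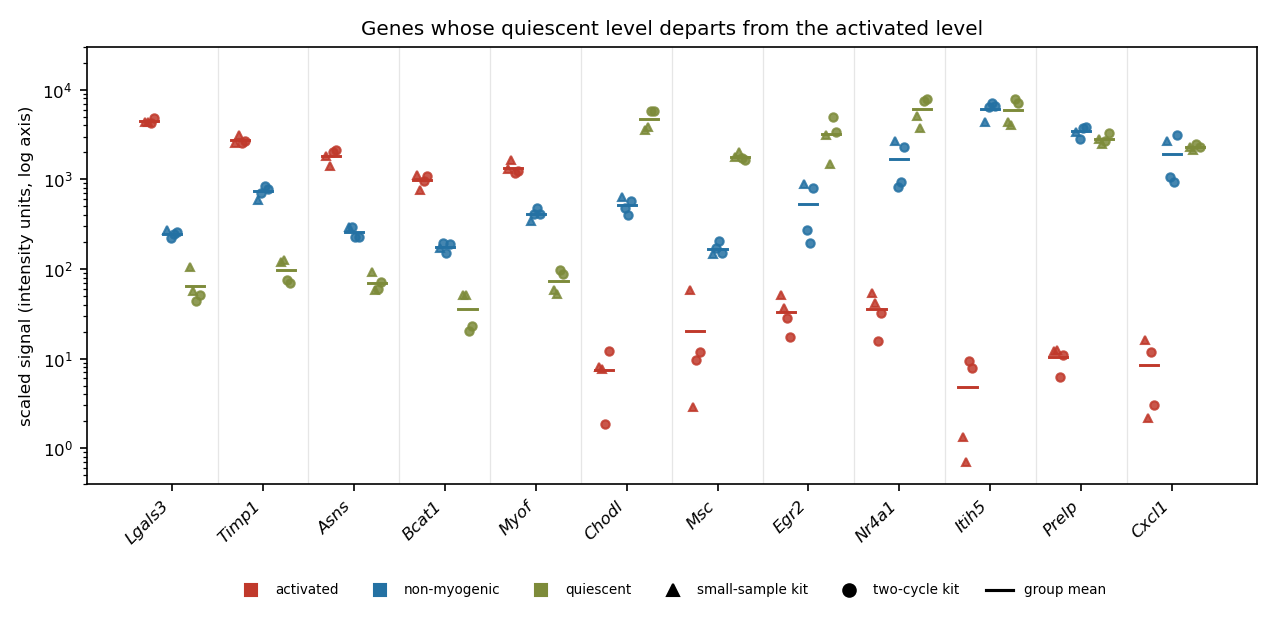
Scaled signal (vertical log axis, intensity units) of 12 genes on the 12 arrays, with points as arrays, shapes for the kit and bars for group means. From Lgals3 to Myof the activated arrays are highest and the quiescent lowest, from Chodl to Nr4a1 the order is turned, and for Itih5, Prelp and Cxcl1 the non-myogenic and quiescent arrays share a level that the activated arrays do not reach.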

How the data were processed

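RNA of 12 samples was measured on the Mouse 430A array, 4 in each of 3 groups, and no sample was left out. The deposited intensity values are the authors' linear probe set signals from MAS5, per the submitters' processing notes. For its version, settings and target level, nothing is given in the sources. The array trimmed means ran from 323 to 502 with the small-sample kit (5 arrays) and from 160 to 236 with the two-cycle kit (7 arrays), and 66.3% to 80.1% of probe sets per array lay above the pseudocount.

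Control probe sets (64) were left out. Signals of each array were multiplied so that their 2% trimmed mean was 235.14, and log2(signal + 14.7) was analysed, 14.7 being 1/16 of that mean. Probe sets with a mean signal of at least 47.03 over the 12 arrays were tested. Of 22690 probe sets 20380 had 1 gene symbol, 691 several and 1555 none, from GEO's platform annotation updated through RefSeq gene IDs, and a gene was read by its probe set of highest mean log2 signal. Limma 3.58.1 (R 4.3.3; lmFit and eBayes) was fitted on all 12 arrays with group and kit terms, which left 8 residual degrees of freedom, and p-values were adjusted by Benjamini-Hochberg over all tested probe sets. On simulated data for this comparison (7960 genes, 200 changed), 78% of the 2-fold and 100% of the 4-fold changes were called, with 6 unchanged genes. The simulation used independent noise and few changed genes, whereas 71.9% of genes were called in the data. These rates need not hold for the data. Figures were drawn with matplotlib 3.10.9 in Python 3.11.15.

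The comparison, the 41 gene lists and the alternatives were chosen with earlier results of these data known. Genes named were drawn from the 12 largest differences per direction, up to 5 members per list by adjusted p with any member going against its list, the marker genes, the leading genes of each pattern against quiescent cells (8, 6 and 8 per direction) and the 5 clearest kit interactions. Not every gene that met this rule is described, mainly among the markers and the members going against their lists. The checks by alternative and by single array left some of them out. Btg2 and Mymk fall outside this rule and were chosen after their values were seen. Replicate numbers were checked for pairing by the correlation of deviations from group means (0.409, -0.182, 0.267 and 0.369) and were not treated as pairs. Alternatives covered the kit, scaling, pseudocount, signal filter, probe set choice, weights, variance prior, replicate number and each array left out.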

Additional observations from a re-analysis of the deposited data

Results flagged for a closer look

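An array was singled out where its gap to the nearest of the other 3 arrays of its group was above Dixon's 95% critical value for 4 values, on the log2 scale. Of 370 groups of 4 arrays checked for the named genes 27 (7.3%) were singled out, and chance does so for about 1 in 20 groups. Non-myogenic replicate 1 accounts for 17 of the 27. It is the only non-myogenic array labelled with the small-sample kit, so the kit and that sample cannot be told apart within the group.

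On non-myogenic replicate 1 the lowest signals of the group that were singled out were those of Fmod at 7104 (others 14231 to 15961), Dpt at 5460 (others 9383 to 10316), Kera at 2946 (others 4482 to 4526), Pi16 at 3277 (others 4970 to 5202), Tnmd at 3506 (others 5144 to 5540) and Rgs5 at 2894 (others 4042 to 4091). They also included Pmp22 at 3710 (others 5558 to 6019), Cd9 at 1043 (others 1772 to 1934), Txnip at 1375 (others 3517 to 4110), Hspa1b at 3859 (others 5489 to 5845) and Peg3 at 1093 (others 1179 to 1191). Further ones were Fbl at 312 (others 645 to 697), Nhp2 at 274 (others 504 to 530), Mthfd1 at 259 (others 357 to 381) and Pgam1 at 501 (others 683 to 711). Cdkn1c at 1548 (others 1244 to 1274) and Laptm5 at 70.6 (others 33.1 to 37.9) were highest on it. These genes do not stand for their lists, since other vessel, matrix and metabolic genes were highest on that array, such as Kdr at 3593 (others 2418 to 2696) and Vars at 180 (others 80.8 to 105). None of the singled out values reached the activated arrays except for Laptm5.

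Other arrays stood apart for single genes. On non-myogenic replicate 4 Cyp51 was at 177 (others 136 to 140), and on non-myogenic replicate 2 Wdr12 was at 93.5 (others 60.4 to 63.5). On activated replicate 1 Dusp2 was at 175 (others 279 to 297) and Fmod at 7.46 (others 0.75 to 1.59). On activated replicate 2 Igfbp2 was at 624 (others 359 to 387) and Meox2 at 1.08 (others 10.6 to 11.7). On activated replicate 3 Alas2 was at 6.09 (others 1.13 to 1.49) and Pttg1 at 2395 (others 2144 to 2174). On activated replicate 4 Lgals3 was at 4834 (others 4310 to 4329) and Timp3 at 8.97 (others 2.86 to 3.5).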

How the results depend on the processing

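With the small-sample kit alone, 2 activated arrays against 1 non-myogenic array, 3632 genes were called (1662 higher and 1970 lower) and 5690 probe sets. There 943 genes were called in the same direction in quiescent cells, with 229 of the 2-fold higher and 678 of the 2-fold lower genes among them, and fewer arrays entered that fit. Median centring gave 2351 genes higher at 2-fold, and unscaled values gave 318 genes higher at 2-fold that were also called in quiescent cells. The other alternatives moved these counts by less than 1.5 times. Leaving out 1 array at a time gave 5337 to 5846 called genes and 8502 to 9376 called probe sets. Within the small-sample kit alone Acta1 turned to 0.69 and Mybph, which was not called over both kits, to 3.37, and the cause was not tested. Among genes not run through the alternatives, Myl1 turned to 0.13, Tnnc2 to 0.04, Acta2 to 0.24 and Mb to 0.46 within that kit. The sign of Mybph also changed under 5 other alternatives (0.09 to 0.49) and that of Myl4 under 2 (-0.22 and -0.21), neither being called there. The remaining genes run through the alternatives kept their direction under all of them. With a replicate block 5262 genes were called (2444 higher and 2818 lower) and 8388 probe sets. 2 of the 4 activated samples correlated best with the non-myogenic sample of their own number, and replicates 2 differ in kit, so the numbers were not used as pairs. The labels do not state whether samples of 1 number share an origin. Precision is limited by 4 arrays a group, and low signals by the pseudocount.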

Other observations

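Ogn, which encodes the small leucine-rich proteoglycan osteoglycin, was at 150, 116, 17.5 and 14 on activated and 4089, 5804, 6226 and 5580 on non-myogenic arrays, and its difference varied with the kit (-4.81 with the small-sample and -7.60 with the two-cycle kit, interaction adjusted p 0.0026 in limma). The 4 quiescent arrays, which enter the comparison only as a reference, ran from 85.4 to 1495 in the summed signal of the 7 leukocyte markers, a wider range than the activated and non-myogenic arrays.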
